A study of Homo sapiens with 4 samples.

Results

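ATP-binding cassette (ABC) genes were followed in H1299, an established human line of non-small-cell lung cancer, after exposure to methylparaben. Members were the protein-coding genes with a symbol from ABCA to ABCG followed by a digit, without 2 of the family that are not analysed here. The rule found 44 of 58735 genes, carrying 43 symbols, since ABCF2 is listed under 2 gene identifiers. Methylparaben, an ester of para-hydroxybenzoic acid used as a preservative, was given at 0.5 mM for 48 h (2 libraries), and the controls were labelled EtOH, for ethanol (2 libraries). The labels give no dose or time for ethanol. They say that experiments were done in duplicate, without saying whether each library had its own culture, so a p-value here covers just the spread between these samples, and that spread may be technical. RNA was selected on poly(A) beads.

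ABC proteins share a nucleotide-binding domain that hydrolyses ATP. Most span a membrane and carry lipids, peptides, drug conjugates, bile salts or metal-containing compounds across it. The A, B, C, D and G subfamilies hold transporters of the plasma membrane, lysosome, mitochondrion and peroxisome, whereas the E and F subfamilies have no membrane-spanning part and act on ribosomes. In cancer cells the family is best known for drug efflux by ABCB1, several ABCC proteins and ABCG2.

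Totals ran from 2068486 to 3760982 counts per library, and a gene with 0 counts in a library may still be present at up to 0.798 to 1.45 CPM (counts scaled to a common library total), taking 3 counts as the limit. Limits and intervals of this kind cover counting error only. They apply to reads that could be counted, so a gene with few countable bases, as described below, may lie above them. Across genes, which do not replicate each other, the correlation of log2 CPM was 0.963 and 0.957 within the groups and 0.816 to 0.853 between them. Of 10 lung epithelial markers 1 had a read, of 7 blood and immune markers 0, of 5 hepatocyte markers 2 and of 5 neuroendocrine markers 3. Each of these lists summed to at most 6.28 CPM in any library. Both the correlations and these sums use CPM scaled with TMM factors (trimmed means of M values). Of 9 genes listed for H1299 itself 7 had reads: epithelial CDH1 and EPCAM had 0 counts and mesenchymal CDH2 had 1, whereas the epithelial keratins KRT8 and KRT18 and mesenchymal AXL and VIM were read in all libraries. Of 6 tested genes on that list 3 were lower with methylparaben, AXL 2.66-fold, VIM 2.28-fold and NRAS 1.89-fold (edgeR adjusted p of 0.000733, 0.00565 and 0.00327). Over all 8055 genes tested, 18.4% were lower at an adjusted p under 0.05 in the same edgeR test. These 3 genes fell as the lower family genes described here did, and their part in those results was not tested. Reads appear to have been counted only where they touch bases held by 1 annotated transcript (single-transcript bases), although the counter is not given in the labels or the table. Of 502 family transcripts, 188 have no such base and these held 0 counts, and 53 transcripts had any read. A read can reach past such bases, as ABCE1-210 had 10 counts with 24 of them.

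Reads were found for 26 of the 44 members, and for 22450 of all 58735 genes. Of the 44 members, 18 had 0 counts in every library, 9 had 1 to 9 counts over the 4 libraries and 17 had 10 or more. Of the 18 members at 0, 17 had single-transcript bases. Their share of exonic bases in a single transcript ran from 8.31% to 72.9% (median 34.8%) over these 17, against 10.4% to 100% (median 38.9%) over the 26 members with reads. The remaining member at 0, ENSG00000285292, the other gene listed as ABCF2, has no such base. All 4 members of the G subfamily were at 0, including the drug efflux pump ABCG2 and the sterol exporter pair ABCG5 and ABCG8. So were the bile salt export pump ABCB11, the phospholipid exporter ABCB4, the conjugate exporter ABCC2 and the sulfonylurea receptor ABCC8. ABCC1, a widely expressed conjugate exporter, had 4 counts in all, with 13.1% of its exonic bases in a single transcript. ABCC4, an exporter of cyclic nucleotides, had 1 count. In the ABCA5, ABCA6, ABCA8, ABCA9 and ABCA10 group on chromosome 17, reads other than 1 on ABCA10 lay on ABCA5 alone.

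Family counts were 1442 and 1573 with ethanol and 1316 and 640 with methylparaben. As a share of all counts this was 0.0609% and 0.0721% against 0.0350% and 0.0309%, so the groups did not overlap. ABCE1 alone made up 57.7% and 64.2% of the family counts with ethanol and 56.9% and 45% with methylparaben. The B subfamily held 16.9% to 20.5% in each library, the C subfamily 8.84% to 14.8% and the D subfamily 6.23% to 13.8%, and the D share was higher in both methylparaben libraries than in either ethanol library. The level of the D subfamily did not show that difference, at 41.0 and 44.9 CPM with ethanol and 38.0 and 42.5 CPM with methylparaben, scaled to library totals. The A and F subfamilies held at most 2.81% and 5.47%.

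**Figure D1:**
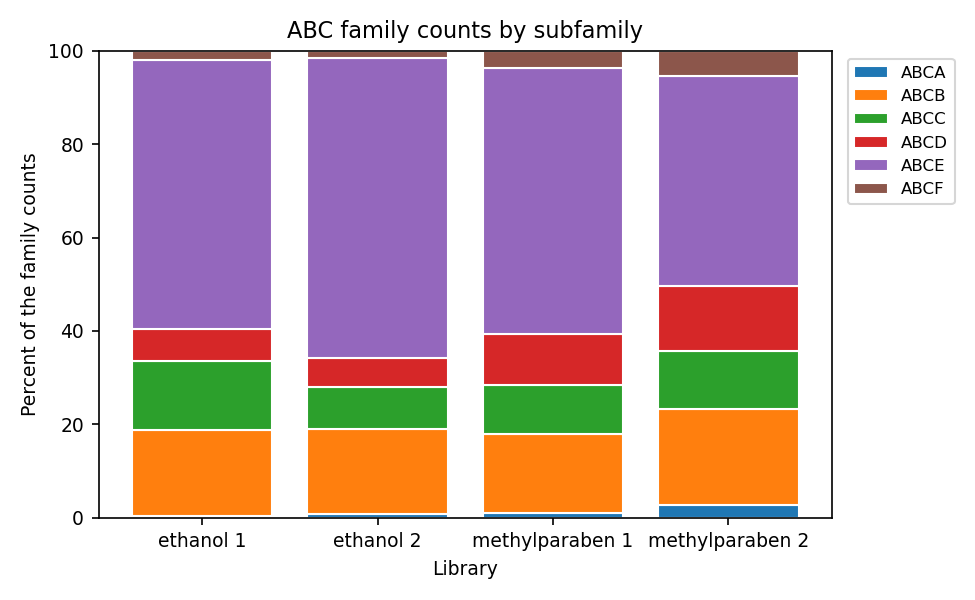
Share of the family's counts held by each subfamily (y axis, percent) in each of the 4 libraries (x axis). ABCE, which is ABCE1 alone, fills 45% to 64.2% of each bar, and the ABCD segment is larger in both methylparaben libraries.

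Relative to single-transcript length, ABCE1 stood first. In CPM per kilobase of single-transcript bases, ABCE1 was at 113, 149, 63.9 and 44.7, in the library order ethanol 1, ethanol 2, methylparaben 1, methylparaben 2, which is used throughout. ABCB10 followed at 29.5, 35.5, 17.5 and 17.4, and ABCC5 at 15.1, 10.4, 6.05 and 6.85. These 3 levels kept that order in each library. The next means on this scale were 4.47 for ABCF2 and 3.61 for ABCD4, and the ranges of these 2 over libraries overlapped.

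Only 9 members had enough counts for a test between the groups, and 5 of them were lower with methylparaben. They included ABCE1, ABCD2, ABCB10 and ABCC5, and 0 of the 9 were higher past the threshold. A gene is called here when its adjusted p is under 0.05 in edgeR's quasi-likelihood test over 8055 genes. Of all genes tested 36.9% were called, 18.4% lower and 18.5% higher. Without ethanol replicate 1 or 2 the count of lower members was 2 of 11 or 3 of 13 tested, and DESeq2 called 3 of 9. The median log2 fold change was -0.89 over the 9 members and 0.03 over all genes tested. In all 9 members the 2 libraries of a group did not overlap with those of the other group, as in 70.5% of all genes tested. Adjusted p values come from this test unless another is named, ± marks the SD of a CPM (from here on scaled with TMM factors, trimmed means of M values) or the SE of a log2 fold change, and n is 2 per group. Bulk RNA cannot tell fewer cells of a kind from less RNA per cell.

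**Figure D2:**
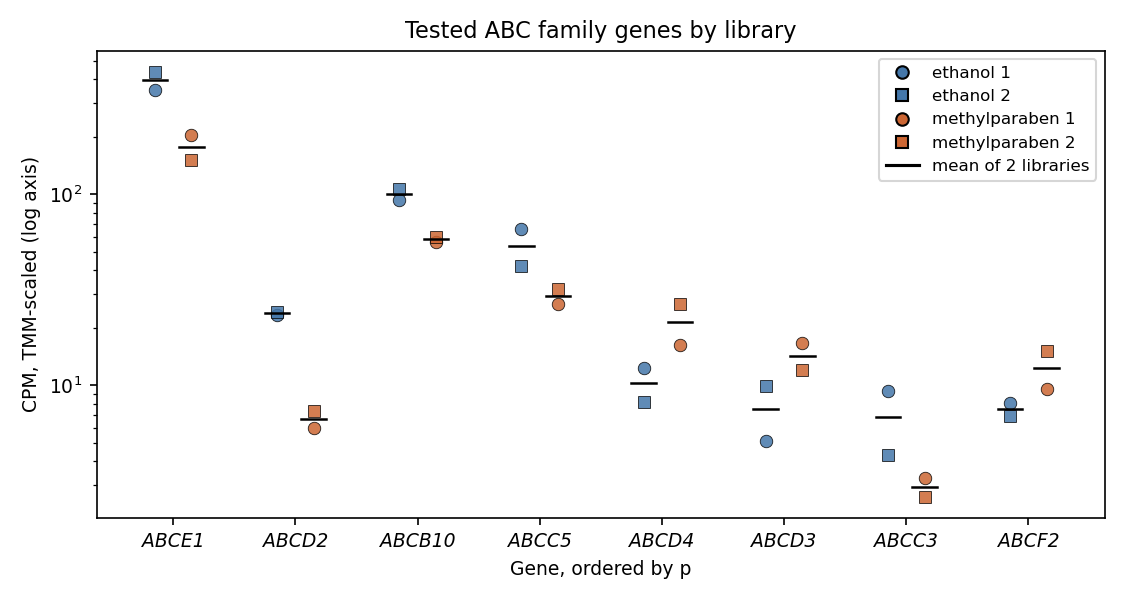
CPM on a log axis (y) for 8 tested family genes (x, ordered by p), with 1 point per library, circles for replicate 1 and squares for replicate 2, and a line at the mean of each group. The libraries of the 2 groups are separate for every gene shown, with ABCE1 falling from a mean of 395 to 177 CPM and ABCD4 lying higher with methylparaben.

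ABCE1 splits ribosomes after termination so that their subunits can be used again. The gene lies on chromosome 4, 145097932 to 145129179 on the plus strand (GRCh38). Its libraries stood at 354, 437, 204 and 151 CPM. Both ethanol libraries were higher than both methylparaben libraries, with means of 395 ± 58.9 and 177 ± 37.5 CPM. This was a 2.22-fold decrease (log2 fold change -1.15 ± 0.20, edgeR adjusted p = 0.00222). Nearly all of these reads, 98.6%, were on the coding transcript ABCE1-201, whose 1376 single-transcript bases hold 0 coding bases and 1357 bases of the 3′ untranslated region. Under that counting, the ABCE1 level comes almost wholly from the 3′ end of the mRNA. In the authors' deposited table the adjusted p of ABCE1-201 is listed as 0, and those of ABCD2-201 and ABCB10-201 are 0.000558 and 0.0169.

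Other ABCE1 reads lay on retained-intron transcripts. ABCE1-209, a transcript with retained introns at 145121320 to 145123931, had 0, 0, 22 and 7 counts, and ABCE1-210, another, had 0, 0, 9 and 1. Reads on these transcripts were seen in the methylparaben libraries alone. They were 4.14% (exact 95% interval 2.83% to 5.82%) and 2.78% (1.21% to 5.40%) of the ABCE1 counts there. In the ethanol libraries 0 of 832 and 0 of 1010 counts have upper ends of the exact 95% interval at 0.442% and 0.365%. Against 3 counts over the ethanol group, ABCE1-209 was at least 7.55-fold higher in the methylparaben group per library count. ABCE1-201 fell by 1.23 ± 0.20 on the log2 scale (edgeR adjusted p = 0.00135 among 9167 transcripts, of which 39.4% were called). ABCE1-209 did not pass the count filter. With no filter its adjusted p by edgeR was 0.0021 among 40279 transcripts, of which 8.83% were called, and in the authors' deposited table it was 1.74e-06. Exon ends of the coding mRNA that run on into intron in ABCE1-209 are printed here because reads of ABCE1-209 can be counted on such intron bases. Capitals are the last 30 bases of exon 13 and of exon 15 of ABCE1-201, both coding, and lower case is the first 30 bases of the intron, each of which belongs to ABCE1-209 alone. The stretches are chr4:145121362-145121421 and chr4:145123328-145123387 on the plus strand, from GENCODE release 29.
ABCE1 exon 13 border: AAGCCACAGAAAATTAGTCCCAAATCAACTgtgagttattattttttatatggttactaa
ABCE1 exon 15 border: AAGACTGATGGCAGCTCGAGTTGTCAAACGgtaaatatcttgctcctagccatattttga
Both introns open with gt, the usual first 2 bases of an intron.

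**Figure D3:**
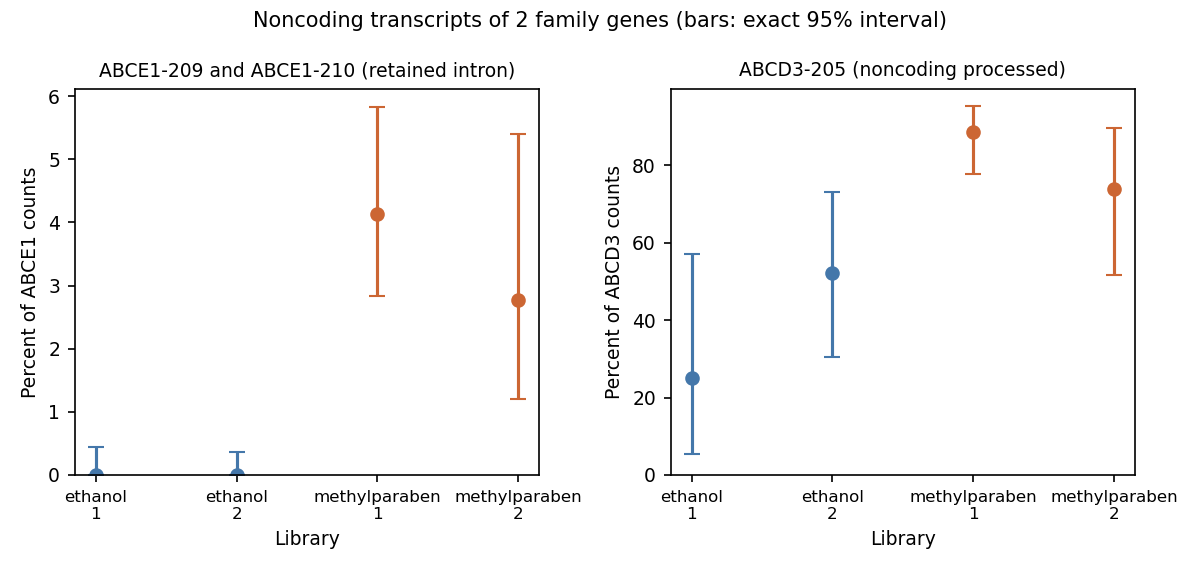
Percent of ABCE1 counts on ABCE1-209 and ABCE1-210 (left) and of ABCD3 counts on ABCD3-205 (right) in each library, with exact 95% binomial intervals that cover counting error only. The ABCE1 share is 0 in both ethanol libraries and 4.14% and 2.78% with methylparaben, and the ABCD3 share is 25% and 52.2% with ethanol and 88.5% and 73.9% with methylparaben.

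ABCB10, of the B subfamily, was lower with methylparaben. It sits in the inner mitochondrial membrane and is needed for normal heme synthesis in red cell precursors. ABCB10 stood at 94, 106, 56.6 and 59.7 CPM. The means were 100.01 ± 8.52 and 58.1 ± 2.17 CPM, so that the methylparaben level lay below both ethanol libraries by more than the spread within either group. The decrease was 1.72-fold (log2 fold change -0.78 ± 0.21, edgeR adjusted p = 0.0176), and the adjusted p became 0.0591 and 0.134 without ethanol replicate 1 or 2. ABCB10 (chromosome 1, 229516582 to 229558695, minus strand) had all its reads on ABCB10-201, whose 2767 single-transcript bases include 1509 coding bases.

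ABCB8, another mitochondrial member, had 6, 5, 2 and 6 counts, and ABCB6 had 1 count in all.

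Of the D subfamily 3 members were tested, of which ABCD2 fell and ABCD3 and ABCD4 were not called. ABCD2 brings very long chain and polyunsaturated fatty acyl-CoA into peroxisomes. It was at 23.4, 24.2, 5.99 and 7.33 CPM, from 55, 56, 22 and 14 counts. The libraries within each group lay close together, with means of 23.8 ± 0.60 and 6.66 ± 0.95 CPM. ABCD2 fell 3.61-fold (log2 fold change -1.85 ± 0.38, edgeR adjusted p = 0.00518), and 85.3% of all genes tested had no larger change in size. The gene (chromosome 12, 39550033 to 39619751, minus strand) has a single annotated transcript, so all 6238 exonic bases are single-transcript bases, 2220 of them coding.

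ABCD3, an abundant peroxisomal membrane protein that imports branched-chain and bile acid precursors, stood at 5.10, 9.95, 16.6 and 12 CPM. Its log2 fold change was 0.94 ± 0.47 with an edgeR adjusted p of 0.143, which is not a call, and limma on log2 FPKM gave it a negative sign. The sum joins transcripts with unlike counts. ABCD3-205, a noncoding processed transcript at the end of the gene, had 3, 12, 54 and 17 counts, whereas ABCD3-206, another noncoding transcript, had 9, 8, 4 and 5. Among the transcripts tested, ABCD3-205 rose by 1.86 ± 0.65 on the log2 scale (edgeR adjusted p = 0.0430). For ABCD3-206, below the count filter, the count ratio of methylparaben over ethanol was 0.413 (exact 95% interval 0.162 to 0.980). This ratio was scaled to library totals without TMM factors, and its interval covers counting error only. With no filter the edgeR adjusted p of ABCD3-206 was 0.695, which is not a call. Protein-coding transcripts held 3.36% of the ABCD3 reads.

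ABCD4, which acts with LMBRD1 in moving vitamin B12 out of lysosomes, was at 12.3, 8.22, 16.3 and 26.7 CPM. Both methylparaben libraries were above both ethanol libraries, at means of 21.5 ± 7.33 and 10.3 ± 2.91 CPM. The log2 fold change of 1.04 ± 0.42 had an edgeR adjusted p of 0.0763, and 0.0121 without methylparaben replicate 1. Retained-intron transcripts held 91.8% of the ABCD4 reads, of which ABCD4-214 had 25, 18, 54 and 40 counts, and its share of the gene's counts was 86.2%, 94.7%, 90% and 78.4%. Coding transcripts had 8.18%. The border of exon 7 of ABCD4-201 (capitals, coding) and the intron kept in ABCD4-214 (lower case, with all 30 bases unique to it) is chr14:74295118-74295177 on the minus strand, and reads of ABCD4-214 can be counted on such bases.
ABCD4 exon 7 border: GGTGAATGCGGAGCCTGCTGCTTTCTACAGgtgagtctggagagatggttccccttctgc

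Of the C subfamily, which includes drug and conjugate exporters, 2 members were tested. ABCC5, which exports cyclic nucleotides and nucleotide analogues, was at 65.5, 42.4, 26.7 and 31.9 CPM. Its ethanol libraries differed from each other more than its methylparaben libraries did, with means of 54 ± 16.3 and 29.3 ± 3.72 CPM. The decrease was 1.85-fold (log2 fold change -0.89 ± 0.30, edgeR adjusted p = 0.0401). Its adjusted p was the largest of the 5 calls, and ABCC5-205 has 0.0628 in the authors' deposited table. Adjusted p by edgeR became 0.297 without ethanol replicate 1, 0.0686 without methylparaben replicate 1 and 0.0666 with the replicate number as a block. The ABCC5 call was lost in 9 of 18 alternatives, these and DESeq2 (adjusted p = 0.0698), limma on FPKM, retained-intron transcripts left out (0.0636) and protein-coding transcripts only (0.0808) among them. The ABCB10 call was lost in 5 of 18, that of ABCE1 in 2 and that of ABCD2 in 1. ABCC5 (chromosome 3, 183919934 to 184018015, minus strand) had 92.2% of its reads on ABCC5-205, where 2621 of 2723 single-transcript bases are 3′ untranslated.

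ABCC3, an exporter of glucuronide conjugates and bile salts, was at 9.36, 4.33, 3.27 and 2.62 CPM, a log2 fold change of -1.18 ± 0.61 with an edgeR adjusted p of 0.158. Its reads were 98% on retained-intron transcripts. Of the F subfamily only ABCF2 was tested, at 8.08, 6.93, 9.52 and 15.2 CPM, with a log2 fold change of 0.69 ± 0.47 and an edgeR adjusted p of 0.273. ABCF2 reads were 97% on coding transcripts, with 1567 of 1632 single-transcript bases of ABCF2-201 in the 3′ untranslated region. Neither gene passed the threshold in the alternatives in which it was tested.

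**Figure D4:**
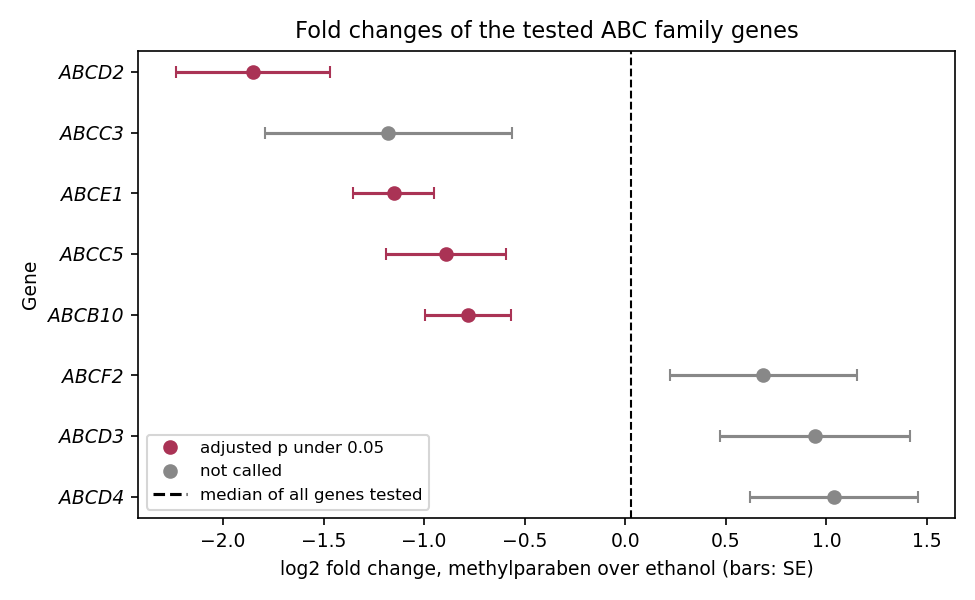
Log2 fold change of methylparaben over ethanol (x axis, bars are the SE) for 8 tested family genes (y axis), with calls in red, other genes in grey and a dashed line at the median of all genes tested. The 4 called genes drawn lie between -1.85 and -0.78, and the 3 genes with positive values are not called.

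Members below the count filter had too few reads for the main test. The 8 of them with at least 10 counts are given by count ratio, scaled by the TMM library sizes, with exact 95% intervals that cover counting error only and not the spread between libraries. ABCB1, the multidrug efflux pump P-glycoprotein, had 16, 5, 5 and 1 counts, a ratio of 0.238 (0.0787 to 0.611). Ethanol 2 and methylparaben 1 held the same ABCB1 count, which is 2.16 and 1.36 CPM in these libraries of unequal size. ABCC9, the sulfonylurea receptor of potassium channels in heart and smooth muscle, had 14, 9, 4 and 0 counts, a ratio of 0.145 (0.0365 to 0.425). Without a filter ABCC9 had an edgeR adjusted p of 0.0403 (0.0199 for ABCC9-201 in the authors' deposited table), where 14.2% of 22450 genes were called, and ABCB1 had 0.156. ABCC6, which mediates ATP release from liver cells, had 8, 13, 5 and 1 counts and the same ratio as ABCB1, since the group sums of 21 and 6 were equal. Of its reads 92.6% lay on ABCC6-204, a short transcript from the start of the gene, a stretch with near-identical copies in the pseudogenes ABCC6P1 and ABCC6P2, so ABCC6 is uncertain.

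The other low-count members showed no ratio whose interval left out 1. ABCA5, of the lipid-transporter subfamily A and located in lysosomes, had 5, 9, 11 and 18 counts, a ratio of 1.73 (0.885 to 3.54). ABCC10, a drug exporter, had 6, 7, 15 and 9 counts, a ratio of 1.54 (0.754 to 3.29). ABCF3 was at 9, 7, 11 and 6 counts, a ratio of 0.887 (0.421 to 1.88), with all reads on retained-intron transcripts. ABCB8 had a ratio of 0.607 (0.212 to 1.66). ABCC11, a conjugate exporter of sweat glands, had 9, 1, 2 and 3 counts, a ratio of 0.417 (0.112 to 1.34). The intervals are wide, and differences within them were not detectable at this depth.

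**Figure D5:**
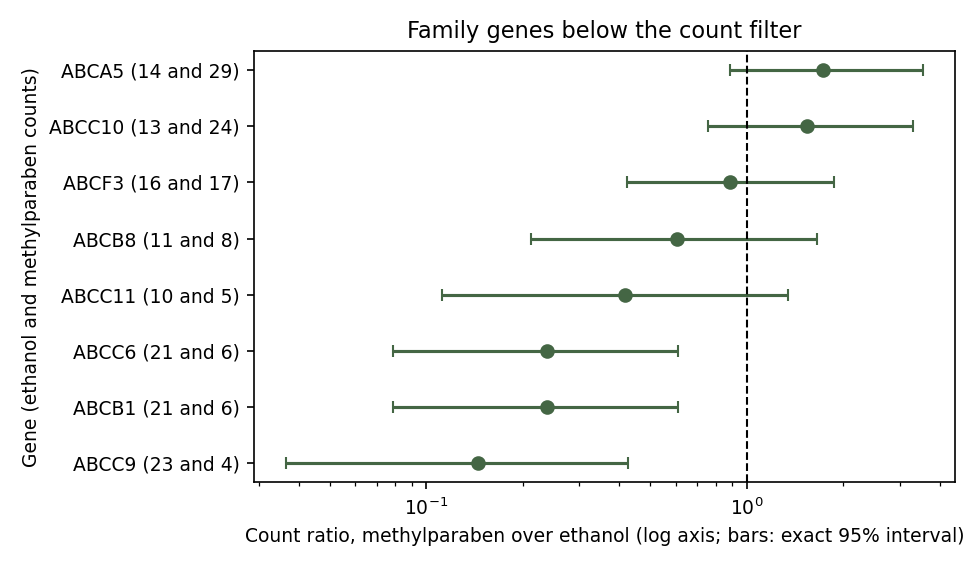
Count ratio of methylparaben over ethanol on a log axis (x) for the 8 family genes below the filter with at least 10 counts (y, with the summed counts of the ethanol and the methylparaben group), with exact 95% intervals and a dashed line at 1. The intervals of ABCC9, ABCB1 and ABCC6 lie below 1 and the other 5 include it.

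Transcript type divided the family's reads. Of all family counts 89.8% were on coding transcripts, 6.60% on retained-intron and 3.48% on noncoding processed transcripts, and without ABCE1 these shares were 77.7%, 13.8% and 8.27%. All 5 called genes were read at 93.9% to 100% on coding transcripts. ABCD4, ABCD3 and ABCC3, with 8.18%, 3.36% and 2.04% on coding transcripts, were not called, and neither was ABCF2, with 97%. Levels differed too: ABCE1, ABCB10 and ABCC5 had mean log2 CPM of 8.17, 6.32 and 5.40, and the members not called 2.49 to 4.04. ABCD2, called, was at 3.98, within that range. Whether transcript type or level bears on the calls was not tested.

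Promoters of the called genes were looked at because these genes moved in 1 direction. RefSeq gave the 250 bases before a start, 1 start per gene, (GRCh38.p14) for 34 of 43 member symbols and for 4 of the called genes, ABCE1, ABCD2, ABCB10 and ABCC5. The stretches of ABCD2 (chr12:39619804-39620053) and ABCB10 (chr1:229558708-229558957), both on the minus strand and outside any annotated exon of the gene, are printed as examples of a promoter with a CCAAT box and of a GC-rich one. Capitals mark GGGCGG and CCAAT, on either strand.
ABCD2: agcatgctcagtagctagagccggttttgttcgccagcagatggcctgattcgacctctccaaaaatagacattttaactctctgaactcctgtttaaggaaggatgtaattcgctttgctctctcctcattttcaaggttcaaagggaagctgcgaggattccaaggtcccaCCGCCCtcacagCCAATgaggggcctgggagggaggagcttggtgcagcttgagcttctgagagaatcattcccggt
ABCB10: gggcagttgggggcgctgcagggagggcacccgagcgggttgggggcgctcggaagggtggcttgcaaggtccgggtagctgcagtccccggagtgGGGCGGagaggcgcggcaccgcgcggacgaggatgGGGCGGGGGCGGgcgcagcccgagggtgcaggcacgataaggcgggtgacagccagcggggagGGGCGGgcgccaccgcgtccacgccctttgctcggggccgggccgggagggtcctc
ABCB10 has 4 GGGCGG and 77.2% G and C, against 1 GGGCGG, 1 CCAAT and 50.8% for ABCD2. The GGGCGG hexamer, the core of the GC box bound by SP proteins, was in the promoters of ABCB10, ABCC5 and ABCD2, in 50% of the 34 member promoters and in 42.3% of all 27305 promoters. CCAAT was in 17.6% of member promoters and 33% of all. Of the 34 member promoters searched, that of ABCE1 held the palindrome TGACGTCA of the cAMP response element, a share of 2.94% against 1.77% of all promoters. The match starts 98 bases before the RefSeq start, within an annotated exon of ABCE1, and is in capitals in the 28 bases of chr4:145098203-145098230, plus strand.
ABCE1: cgcagctcaaTGACGTCAtatctcccta
The aryl hydrocarbon receptor core TTGCGTG was in 0 of 34 member promoters and in 0.956% of all, and CACGTG was in 3 member promoters (8.82%, against 6.49% of all) and in 0 of the 4 called genes. TATAAA was in the promoter of ABCC5 among the called genes, in 11.8% of member promoters and in 11.1% of all. The ATF4 and CHOP core TGATGNAA was in 2.94% of member promoters and in 3.19% of all. Each motif was searched on both strands. TGACGTCA and CACGTG read alike on both, and such matches describe letters, not binding.

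Genes that work with the transporters were counted in 8 lists. Of 68 tested partner genes 27 were called, 15 higher and 12 lower, where 36.9% of all genes were called. Without ethanol replicate 1, fewer partner genes were called, and fewer of all genes as well. Partners of ABCE1 and the F subfamily in ribosome recycling and translation control had 3 of 13 tested members higher and 2 lower, with a median log2 fold change of 0.39. GSPT1, the release factor eRF3a that acts before ABCE1 in termination, fell 5.28-fold, from 175 ± 13.7 to 32.8 ± 6.37 CPM (edgeR adjusted p = 0.000115). EIF3J, an initiation factor that helps clear the small subunit, fell by 0.70 ± 0.17 on the log2 scale (edgeR adjusted p = 0.0108). EIF2S2, the beta subunit of the factor that carries initiator tRNA, rose by 0.59 ± 0.17 (edgeR adjusted p = 0.0196). PELO, with which ABCE1 splits stalled ribosomes, was at -0.09 ± 0.24 (edgeR adjusted p = 0.804). GSPT1 was read at 98.5% on coding transcripts.

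Heme and iron-sulfur synthesis, the setting of ABCB10, had 2 of 13 tested genes higher and 5 lower, with a median of -0.52. HSPA9, a mitochondrial chaperone, rose 5.44-fold and ISCU, the scaffold of iron-sulfur clusters, 6.43-fold, with edgeR adjusted p of 0.000197 and 0.000515, but 99.3% and 100% of their reads lay on retained-intron transcripts. SLC25A37, the mitochondrial iron importer mitoferrin, read at 94.4% on coding transcripts, fell from 223 ± 16.7 to 127 ± 7.99 CPM (edgeR adjusted p = 0.00657). FECH, ferrochelatase, which makes heme from protoporphyrin, fell by 0.90 ± 0.25 on the log2 scale (edgeR adjusted p = 0.0184), and is named for its link to ABCB10 after its value was seen, like PELO for ABCE1 and LMBRD1 for ABCD4. Peroxisome genes, the setting of the D subfamily, had 2 of 15 higher and 2 lower. CAT, catalase, rose 3.43-fold with 0% of its reads on coding transcripts and EHHADH, a peroxisomal beta-oxidation enzyme, fell 3.96-fold with 93.3% on coding transcripts (edgeR adjusted p of 0.00627 and 0.0111).

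Conjugation supplies substrates to the conjugate exporters of the C subfamily. Of 6 tested glutathione and conjugation genes 2 rose and 0 fell, GCLC, the catalytic subunit of the first enzyme of glutathione synthesis, from 3.45 ± 2.47 to 14.5 ± 2.43 CPM and its modifier GCLM from 147 ± 20.6 to 226 ± 44.3 CPM (edgeR adjusted p of 0.0190 and 0.0363). Of 4 tested solute carriers of drugs and anions, SLC22A15 rose 2.94-fold and SLC22A4, a carnitine-related carrier, fell 3.42-fold (edgeR adjusted p of 0.00329 and 0.0234). SLC19A2, a thiamine carrier, had 2 and 37 counts in the groups, a ratio of 15.4 (exact 95% interval 3.98 to 132), with 97.4% on retained-intron transcripts and an edgeR adjusted p of 0.00951. Transcription factors reported to control ABC genes had 2 of 8 tested members higher and 0 lower. NFE2L2, the NRF2 gene, was at 1.64 ± 0.35 and ARNT, the partner of the aryl hydrocarbon receptor, at 3.14 ± 0.68 (edgeR adjusted p of 0.00570 and 0.00628). ARNT rose from 1.29 ± 1.23 CPM, with 50% of its reads on coding transcripts, against 79.7% for NFE2L2. In the peptide loading complex, which includes the ABC proteins TAP1 and TAP2 and was listed with CFTR, 1 of 4 tested genes was higher and 2 lower. B2M, the light chain of class I molecules, rose 3.96-fold with 93.9% of its counts from retained-intron transcripts, while TAPBP, which bridges TAP and class I molecules, and PDIA3 fell 2.28-fold and 1.79-fold with 99.4% and 95.4% on coding transcripts (edgeR adjusted p of 0.000325, 0.00407 and 0.0402). TAP1, TAP2 and CFTR were not among the genes tested. Of 5 tested lysosome and lipid partners 1 rose, NPC1, the lysosomal cholesterol carrier, 2.26-fold (edgeR adjusted p = 0.0304). NPC1 had 42.5% of its reads on retained-intron and 57.5% on coding transcripts. LMBRD1, the partner of ABCD4, was at 1.34 ± 0.75 (edgeR adjusted p = 0.186).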

How the data were processed

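RNA from 4 H1299 libraries, 2 per group, was sequenced after poly(A) selection and TruSeq preparation, per the labels' protocols. The authors deposited raw read counts for 206601 transcripts. The deposited table also holds FPKM, which follow from the counts, the transcript lengths and a library size 0.985 to 1.04 times the count total, and log2 of FPKM plus 1, as a recalculation showed. The authors' own p-value for each transcript, raw and adjusted, was deposited with no effect size and no named test. The submitters' processing notes list GRCh38, DESeq2, limma and edgeR without roles; aligner and counter: not given in the sources used here. All 502 family transcripts were found at GENCODE release 29 coordinates. Reads appear to have been counted only where they touch bases of a single transcript, which is inferred from the values, so a gene's count may come from part of its RNA. Whether strand was used is not stated, so overlapping and antisense genes are uncertain.

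Transcript counts were summed per Ensembl gene, filtered with filterByExpr (minimum count 10, minimum total 15), scaled by TMM and compared by edgeR's two-sided quasi-likelihood test (version 4.0.16, R 4.3.3). P-values of 8055 genes were adjusted together by Benjamini and Hochberg's method, and values under 0.05 were called. The SE is the log2 fold change over the square root of F. Transcripts were fitted in the same way. Scripts were tested on simulated data. Count ratios have exact binomial 95% intervals, and 3 counts stand for 0. Alternatives were other scalings, DESeq2 1.42.0, voom and limma 3.58.1 on log2 FPKM with pseudocounts of 1 and 0.1, other filters, transcript types, a replicate block and leaving out each library.

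The family members and the lists of partner genes were chosen with earlier results of these data known. Some items are not reported here, though counts over the family include them. Named genes are otherwise the members tested, members below the filter with 5 or more counts in a library, and up to 3 called genes with the smallest p per partner list. Members with fewer counts or none, and markers, are named as examples chosen after their values were seen. Protein stretches that had been planned were not used here. Promoter sequences come from RefSeq (GRCh38.p14) and exon borders from GENCODE.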

Additional observations from a re-analysis of the deposited data

How the results depend on the processing

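With 2 libraries a group and few counts on most members, depth and replicate number limit these results. The count of 5 members became 3 with DESeq2, 2 and 1 with limma on log2 FPKM at pseudocounts of 1 and 0.1, and 0 with limma on FPKM without a filter, where 6 members had an unadjusted p under 0.05. Over all genes, 2976 calls became 1481 at a pseudocount of 0.1, 1867 with protein-coding transcripts only (4487 genes tested) and 0 without a filter on FPKM (4424 unadjusted). The 27 partner calls became 14 at a pseudocount of 0.1 and 0 without a filter on FPKM (34 unadjusted). Leaving out a library gave 2 to 5 members, 1677 to 3095 genes and 11 to 29 partner genes, and the cause was not tested. Under the other alternatives these counts stayed within 1.5 times. Without a filter, added after seeing the data, 2 family transcripts were called higher and 4 lower, against 1 and 5 with it, with ABCC5-205 lost (adjusted p = 0.0601) and ABCE1-209 gained (0.0021). For single members, 130 settings left the call as it was, 24 lost a call and 2 gained one, and no called value changed sign, while ABCD3, not called, turned to between -0.14 and -0.12 with limma on FPKM. With the replicate number as a block, 4 members, 2488 genes and 23 partner genes were called. Same-numbered libraries had deviations correlated at -0.150, so the numbers are not known to pair them. The crossed replicate block, chosen after seeing the data, gave 6 members, 3292 genes and 33 partner genes.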

Other observations

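Outside the protein-coding rule, 16 pseudogenes and noncoding genes carry an ABC name, and 6 had reads. ABCC6P1 had 21, 13, 0 and 4 counts and ABCC6P2 had 13, 11, 0 and 1, in the order ethanol 1, ethanol 2, methylparaben 1 and methylparaben 2, with edgeR adjusted p of 0.0306 and 0.0082. Both were lower with methylparaben, and ABCC6, which shares sequence with them, had 8, 13, 5 and 1 counts. ABCA11P had 26, 26, 12 and 18 counts, a log2 fold change of -0.91 and an edgeR adjusted p of 0.233. Reads that match both a pseudogene and its parent gene were not told apart here.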
